A study of Mus musculus with 2 samples.

Results

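The data describe 10 genes of the cytoskeleton and of its links to the plasma membrane in single cells of the murine retinal pigment epithelium (RPE), the pigmented cell layer between the photoreceptors and the choroid. The genes were taken by symbol, and they are the rows of Krt18 and Krt8 (keratins), Vim (vimentin), Actb (β-actin), Tmsb10 (thymosin β10), Tpm1 (tropomyosin 1), Ezr (ezrin), Ermn (ermin), Anxa2 (annexin A2) and Map1b (microtubule-associated protein 1B), 10 of the 27998 genes listed in each matrix. The samples came from 2 male C57BL/6J mice without treatment, R1 and R2, given as postnatal day 36 in the methods and as 4 to 5 weeks old in the labels, with the cells of both eyes pooled per mouse. RPE sheets were released from eyecups with trypsin, disrupted mechanically, and sorted for single cells that took up the viability dye calcein, and droplet-based RNA sequencing then counted transcripts by their unique molecular identifiers (UMIs). There was a single condition, so cells were compared within each mouse. Cells in which transthyretin (Ttr), an abundant RPE transcript, made up at least 5% of the UMIs are called high-Ttr cells, and cells in which it made up less than 3% are called low-Ttr cells.

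Epithelial cells hold their shape with 3 filament systems, namely actin filaments, microtubules and intermediate filaments. Keratin 8 and keratin 18 pair as the intermediate filaments of simple epithelia, whereas vimentin forms those of mesenchymal and many neural cells. Ezrin ties actin filaments to the membrane of microvilli and is needed for the apical microvilli with which RPE cells contact photoreceptors. Thymosins bind actin monomers, tropomyosins coat actin filaments, annexin A2 binds membrane phospholipids and actin in the presence of calcium, and Map1b stabilizes microtubules in neurons. Ermin is an actin-binding protein that is best known from oligodendrocytes, the myelin-forming cells of the brain.

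All 10 genes are protein-coding. In GRCm38 (GENCODE vM21), Krt8 lies at chr15:101996698-102004482 and Krt18 at chr15:102028180-102032027, next to each other with 23697 bases between them and on opposite strands. Vim (chr2:13573927-13582826) and Ermn (chr2:58045113-58052864) share chromosome 2, and Tpm1 (chr9:67022590-67049406) and Anxa2 (chr9:69453620-69491795) share chromosome 9. Actb is at chr5:142903115-142906754, Tmsb10 at chr6:72957347-72958748, Map1b at chr13:99421446-99516540 and Ezr at chr17:6738041-6782784.

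R1 held 2844 cells with 26034378 UMIs and R2 held 2994 cells with 29732969 UMIs, and 12 cell barcodes occurred in both mice. After filtering, 2612 high-Ttr and 58 low-Ttr cells remained in R1, 2828 and 19 remained in R2, and no cell fell between the limits. Median depth was 8431.5 and 7687 UMIs in high-Ttr cells against 3202 and 3836 in low-Ttr cells, and the median mitochondrial share was 1.30% and 1.26% against 2.58% and 3.35%. Every high-Ttr cell had UMIs of at least 3 of 8 RPE markers (Rpe65, Rlbp1, Lrat, Rdh5, Rgr, Best1, Rrh and Stra6). The same held for 48 of 58 low-Ttr cells in R1 and 13 of 19 in R2. The summed RPE markers reached 400 and 449 UMIs per 10000 in high-Ttr cells and 35.3 and 24.4 in low-Ttr cells, where Best1 was at 0. A list of 8 genes that includes Pax6 and Dkk3 went the other way, with 3.46 and 2.23 in high-Ttr cells and 95.1 and 93.0 in low-Ttr cells. Of the low-Ttr cells, 53 in R1 and 16 in R2 carried this list without markers of the next 2 types, 2 and 1 carried at least 3 microglia or macrophage markers, and 3 and 2 carried at least 3 fibroblast markers. Within the Pax6/Dkk3 class, 16 cells of R1 and 11 of R2 also carried at least 3 of 14 ciliary epithelium markers, and the study describes dissection that removed the ciliary body and iris. The low-Ttr cells therefore carried markers of more than 1 type, and they are called here by their Ttr level only.

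In high-Ttr cells the keratin pair, ezrin, ermin and β-actin were found in most cells, the other members in fewer. Levels are mean UMIs per 10000 UMIs of a cell, counted at the 3′ ends of transcripts and so not divided by gene length. Krt18 was the most abundant member, at 20.0 in R1 and 20.3 in R2, which ranked 40th and 39th among all genes. Its partner Krt8 reached 3.30 and 2.89, so the UMI counts of the pair were unequal in both mice. Krt8 has a named pseudogene, Krt8-ps, and reads shared with it could be lost in counting.

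The membrane linkers Ezr and Ermn had nearly the same level. Ezr reached 6.60 in R1 and 6.73 in R2, and Ermn reached 6.52 and 6.39, so that the difference between these genes was about as small as that between the mice. Each mouse gave a single library, so a difference between the mice cannot be told apart from one between libraries or their handling. Actb was the member that differed most between the mice among those found in most cells, with 3.53 in R1 and 7.16 in R2. By this mean over cells it ranked between Ermn and Krt8 in R1 and above Ezr in R2, whereas in the UMIs summed over the cells of R2, where deep cells weigh more, it was at 5.05, below Ermn at 6.18 and Ezr at 6.95. Actg1, the near-identical second cytoplasmic actin, had only 13 and 24 UMIs in all high-Ttr cells (it is named here after its values were seen), and β-actin counts are uncertain to the extent that reads shared between near-identical copies were dropped in counting. Acta2, smooth muscle α-actin, was listed with 2.44 and 2.46 UMIs per 10000 summed UMIs.

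The remaining members were sparse. Tmsb10 had 0.697 and 0.684 UMIs per 10000, Vim 0.563 and 0.754, Anxa2 0.415 and 0.483, and Tpm1 0.320 and 0.305. The order of Tmsb10 and Vim changed between the mice, whereas Anxa2 stayed above Tpm1 in both. Map1b was nearly missing, with 41 UMIs in 28 of 2612 cells of R1 and 25 UMIs in 20 of 2828 cells of R2. No high-Ttr cell had more than 4 UMIs of Map1b.

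**Figure D1:**
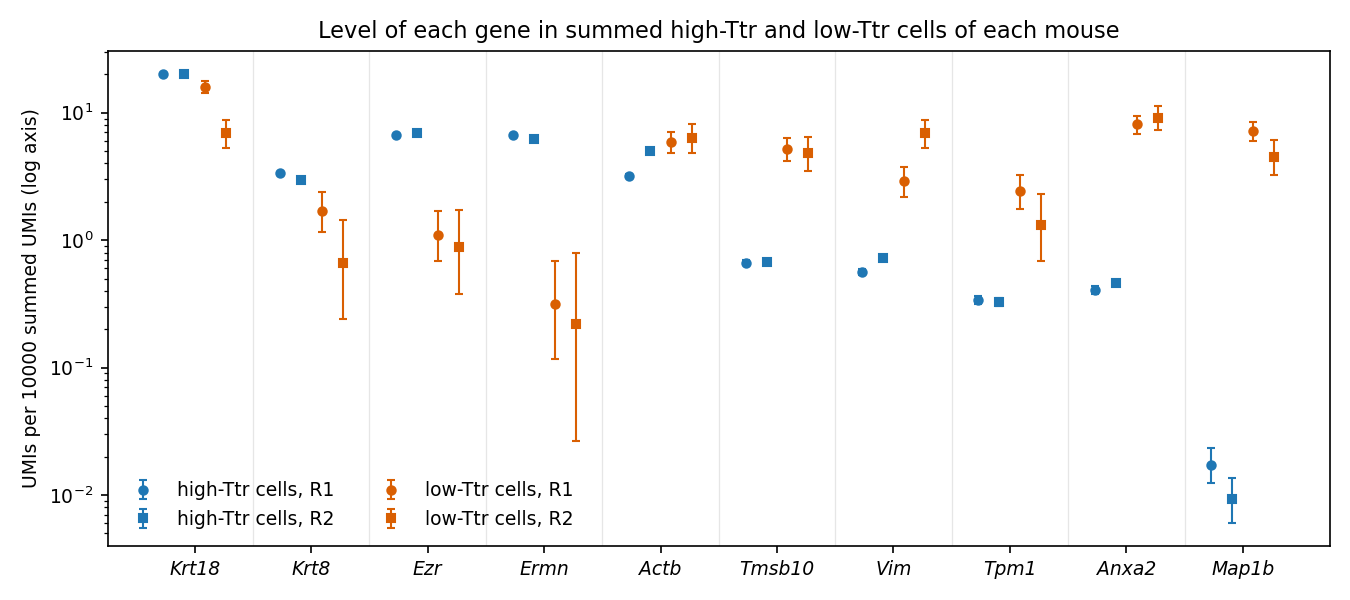
UMIs of each gene per 10000 summed UMIs (vertical log axis) in high-Ttr cells (blue) and low-Ttr cells (orange) of R1 (circles) and R2 (squares), with exact Poisson 95% intervals that cover counting error only. Tmsb10, Vim, Tpm1, Anxa2 and Map1b sit higher in low-Ttr cells of both mice, Krt18, Krt8, Ezr and Ermn sit lower, and Actb lies between 3.21 and 6.37 in all 4 sums.

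The share of cells with a UMI moved with depth, and its order was not in every case that of the levels. At full depth Krt18 was found in 99.6% of high-Ttr cells of both mice, Ezr in 93.7% and 89.9%, Ermn in 91.9% and 89.5%, Krt8 in 82.8% and 75.5%, and Actb in 80.1% and 92.1%. After each cell was thinned to 2000 UMIs, Krt18 was still found in 96.4% of cells of both mice, whereas Ezr was found in 68.4% and 67.9%, Ermn in 65.6% and 64.7%, Krt8 in 46.6% and 40.7%, and Actb in 44.7% and 62.6%. At this depth Vim was found in 9.49% and 11.2%, Anxa2 in 6.97% and 8.56%, Tpm1 in 5.02% and 5.34%, and Map1b in 0.383% and 0.141%. The low-Ttr cells give the share in cells with little RPE RNA at the same depth. There, Ermn was found in 5 of 58 cells of R1 and 1 of 19 cells of R2, and Krt18 in 48 and 10.

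**Figure D2:**
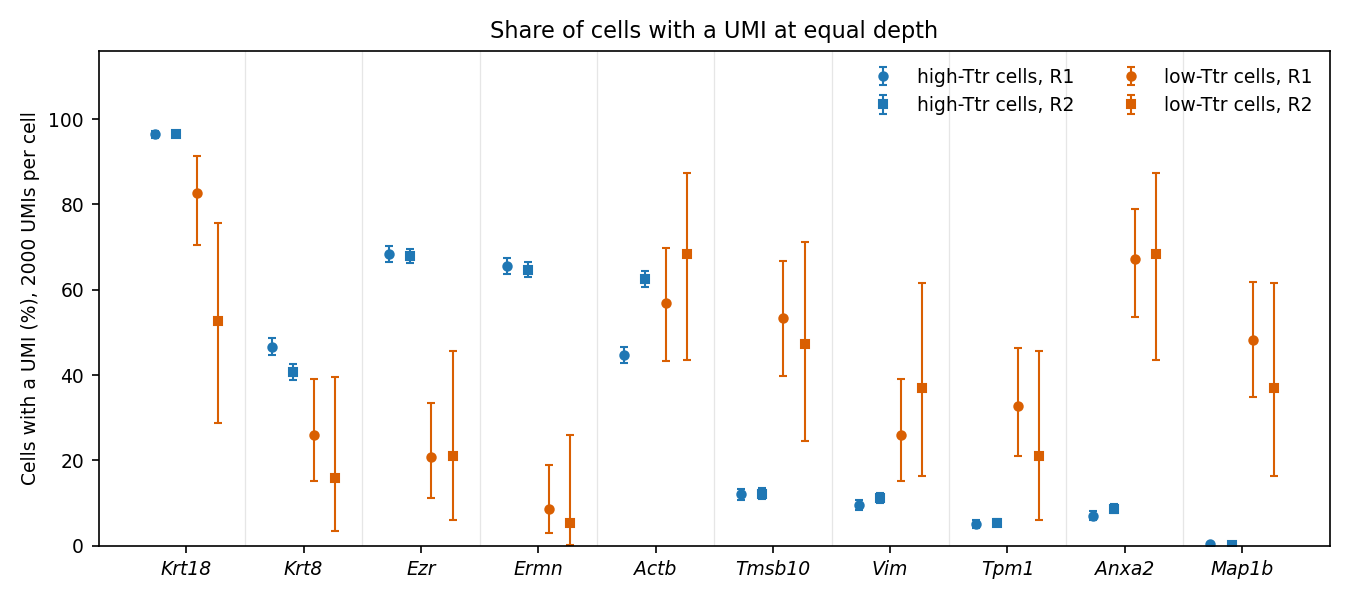
Percentage of cells with at least 1 UMI of each gene after thinning every cell to 2000 UMIs, in high-Ttr cells (blue) and low-Ttr cells (orange) of R1 (circles) and R2 (squares), with exact 95% Clopper-Pearson intervals that cover counting error only. Map1b was found in 0.383% and 0.141% of high-Ttr cells and in 48.3% and 36.8% of low-Ttr cells, and Ermn in 65.6% and 64.7% against 8.62% and 5.26%.

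The comparison of low-Ttr with high-Ttr cells asks which parts of the cytoskeleton differ between cells with a low and a high share of this abundant RPE transcript. In low-Ttr cells of both mice the RPE keratins and membrane linkers were lower, and the actin-binding genes Tmsb10 and Tpm1, the vimentin filament gene, annexin A2 and the neuronal microtubule gene Map1b were higher. UMIs were summed over low-Ttr and over high-Ttr cells per mouse and tested across all genes with edgeR's quasi-likelihood test, with mouse as blocking term and p-values adjusted after Benjamini and Hochberg. All 10 members were tested, and 9 passed an adjusted p of 0.05, 5 higher and 4 lower. Among all 11489 genes tested other than Ttr, 10.9% passed, 4.16% higher and 6.73% lower. The p-values measure only the spread between the sums of 2 mice, as edgeR pools it over genes, so a gene's own difference between the mice enters little. The members were chosen with results of these cells known, so the count describes the members and is no test of them. Levels in this comparison are UMIs per 10000 summed UMIs, so deep cells weigh more. In R2, 3 of the 19 low-Ttr cells had over 8000 UMIs, and without them 57211 of the 91115 summed UMIs remained. A higher level in such a sum can come from more cells with the transcript or from more transcript per cell, so counts of cells are given as well. Low-Ttr cells were also shallower, and against high-Ttr cells of matched depth 9 members passed. In that fit 1017 genes other than Ttr passed, with only 4852 genes tested. The part of the higher mitochondrial share of low-Ttr cells was not tested. Over all genes tested, medians of the log2 fold change were -0.39 under TMM scaling and 0.38 without it.

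Map1b had the largest difference of the members. Low-Ttr cells had 7.20 UMIs per 10000 in R1 and 4.50 in R2, against 0.0173 and 0.00929 in high-Ttr cells, which was 417-fold (95% counting interval 292 to 607) and 485-fold (288 to 831) higher. The edgeR log2 fold change was 8.02 (SE 0.45, adjusted p = 2.14e-66). The transcript was found in 37 of 58 low-Ttr cells of R1 and 9 of 19 of R2, and it was uneven over them. In R1 the highest count of a single cell was 30 of the 137 UMIs. The median low-Ttr cell had 3.03 UMIs per 10000 in R1 and 0 in R2. Map1b overlaps the gene 5330431K02Rik on the same strand, and reads that fall in both cannot be assigned.

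Among the members that were higher, Anxa2 came next, with 8.10 and 9.11 UMIs per 10000 in low-Ttr cells against 0.406 and 0.463 in high-Ttr cells. The ratio was 19.9 in R1 and 19.7 in R2, and the edgeR log2 fold change was 3.53 (SE 0.34, adjusted p = 4.11e-23). It was found in 47 of 58 and 16 of 19 low-Ttr cells, about as many as Krt18. In R2 the highest count of a single cell was 22 of the 83 UMIs. S100a10, the binding partner of annexin A2, had 3.89 and 4.39 UMIs per 10000 against 1.41 and 1.71. Under TMM scaling S100a10 did not pass the test (log2 fold change 0.64, SE 0.34, edgeR adjusted p = 0.279). Without that scaling it was called higher. It is named here after its values were seen.

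Tmsb10 and Tpm1, which bind actin monomers and filaments, were higher in low-Ttr cells, and β-actin was not called. Tmsb10 had 5.15 and 4.83 UMIs per 10000 in low-Ttr cells against 0.668 and 0.671, and edgeR gave a log2 fold change of 2.12 (SE 0.35) with an adjusted p of 4.05e-08. It was found in 38 of 58 low-Ttr cells of R1 and 13 of 19 of R2. Tpm1 had 2.42 and 1.32 against 0.337 and 0.327, and its log2 fold change was 1.72 (SE 0.47, edgeR adjusted p = 0.00322). In R2 alone, also under TMM scaling, it was 1.07. Tpm1 was found in 26 of 58 low-Ttr cells of R1 and 7 of 19 of R2, and the median low-Ttr cell of each mouse had 0. Actb had 5.89 and 6.37 UMIs per 10000 in low-Ttr cells and 3.21 and 5.05 in high-Ttr cells. The counting interval of its ratio lay above 1 in R1 (1.83, 1.51 to 2.21) and included 1 in R2 (1.26, 0.957 to 1.63). The edgeR log2 fold change of Actb was -0.16 with TMM scaling (SE 0.31, adjusted p = 0.843) and 0.63 without it (SE 0.25, adjusted p = 0.0836), so its direction depended on the scaling. Against high-Ttr cells of matched depth, with TMM scaling, it was -0.71 (SE 0.31, edgeR adjusted p = 0.116).

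The intermediate filament members went in opposite directions. Vim was higher in low-Ttr cells, at 2.89 and 6.91 UMIs per 10000 against 0.564 and 0.725, and edgeR gave a log2 fold change of 2.03 (SE 0.35) with an adjusted p of 3.04e-07. A UMI of Vim was found in 19 of 58 low-Ttr cells of R1, where the median cell had 0, and in 13 of 19 of R2. In high-Ttr cells, which were deeper, the share was 28.3% and 30.1%. Krt18 was lower, at 15.9 and 6.91 against 20.2 in both mice, and its log2 fold change was -1.68 (SE 0.33; edgeR adjusted p = 6.98e-06). Krt8 was lower as well, at 1.68 and 0.659 against 3.35 and 2.94, and its log2 fold change was -2.15 (SE 0.39; edgeR adjusted p = 8.77e-07). Both keratins had lower ratios in R2 than in R1, a difference that was not tested. For Krt18 the log2 fold change under TMM scaling was -1.03 in R1 alone and -2.49 in R2 alone. The ratio of its levels without that scaling was 0.788 in R1 and 0.342 in R2. The fit of both mice without TMM scaling gave -0.88 (edgeR adjusted p = 0.00134). A UMI of Krt18 was still found in 49 of 58 low-Ttr cells of R1 and 15 of 19 of R2.

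The membrane linkers were lowest relative to high-Ttr cells. Ezr had 1.10 and 0.878 UMIs per 10000 in low-Ttr cells against 6.66 and 6.95, which was 6.03-fold (3.94 to 9.74) and 7.91-fold (4.01 to 18.3) lower, and edgeR gave a log2 fold change of -3.51 (SE 0.38) with an adjusted p of 8.24e-18. Ermn had 0.315 and 0.220 against 6.65 and 6.18, which was 21.1-fold (9.69 to 57.5) and 28.2-fold (7.79 to 233) lower, and its log2 fold change was -5.28 (SE 0.47; edgeR adjusted p = 1.59e-26). Only 6 and 2 UMIs of Ermn lay behind the low-Ttr values. Ezr and Ermn overlap Sytl3 and Galnt5 on the other strand.

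**Figure D3:**
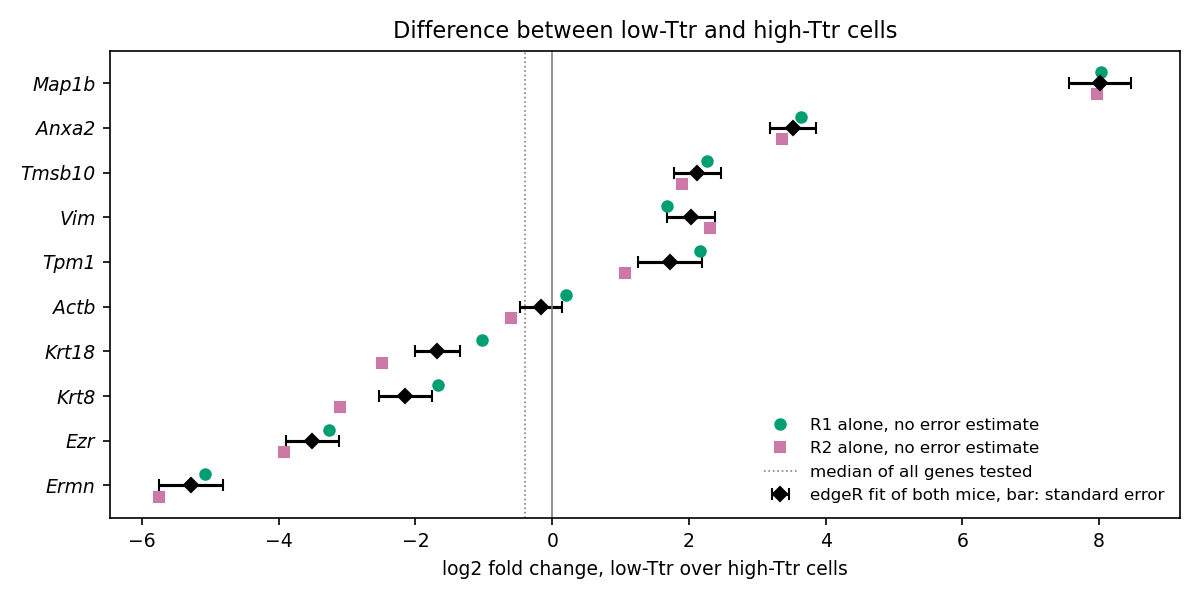
Log2 fold change of each gene between low-Ttr and high-Ttr cells (horizontal axis), from the edgeR fit of both mice (black diamonds, bars are standard errors) and from each mouse alone (green circles R1, pink squares R2, with no error estimate), all under TMM scaling. The dotted line marks the median of all genes tested (-0.39). Both mice lie on the same side of 0 for every gene but Actb, which was at 0.19 in R1 and -0.61 in R2.

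Some RNA of broken cells is captured in every droplet, and the Ttr UMIs of low-Ttr cells give an upper limit for it. If all of them came from high-Ttr cells, 6.48% of the low-Ttr UMIs in R1 and 3.13% in R2 would have that origin, and the same share would bring 8.20 and 1.76 UMIs of Ermn, where 6 and 2 were counted. The Ermn counts were therefore no higher than this limit in R1 and close to it in R2. For Ezr the share would bring 8.20 and 1.98 UMIs where 21 and 8 were counted, for Krt8 4.13 and 0.839 where 32 and 6 were counted, and for Krt18 24.9 and 5.77 where 303 and 63 were counted. Of the 5 higher members it would bring less than 1 UMI each.

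The values also differed among the marked classes of low-Ttr cells. Krt18 was at 17.3 UMIs per 10000 in the Pax6/Dkk3-marked cells of R1, 7.53 in the same class of R2, and all but 3 and 1 of its UMIs came from them. Map1b was at 7.71 and 4.98 in these cells, and Anxa2 at 8.17 and 8.38. Krt8 and Ermn had 0 UMIs in the microglia-marked and fibroblast-marked cells of both mice, which together held 16288 UMIs in R1 and 8772 in R2.

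For other members the few cells of the other types held high values in some classes. Tmsb10 was at 27.5 and 15.5 UMIs per 10000 in fibroblast-marked cells against 3.91 and 4.25 in Pax6/Dkk3-marked cells. Vim was at 11.9 and 15.5 in fibroblast-marked cells, at 50.5 in the microglia-marked cell of R2 and at 2.42 and 4.74 in Pax6/Dkk3-marked cells. Actb was at 20.4 and 33.7 in microglia-marked cells and at 5.52 and 5.46 in Pax6/Dkk3-marked cells. Of microglia-marked cells, the 2 of R1 had 0 UMIs of Vim, and those of both mice had 0 of Tmsb10. Of the whole lists, 6 of 8 microglia or macrophage markers were higher in low-Ttr cells of each mouse (summed 9.04 and 11.7 against 1.69 and 1.24, P2ry12 at 0), as were 6 of 6 fibroblast markers (31.2 and 22.0 against 0.0215 and 0.0877). Of the ciliary epithelium list, 8 and 9 of 14 markers were higher (summed 21.0 and 37.6 against 3.05 and 2.74), and Tfap2b, Gjb2 and Opn5 were at 0 in low-Ttr cells of both mice. Without the microglia-marked and fibroblast-marked cells, 9 members still passed the edgeR test. In that fit 984 genes other than Ttr passed, with 11385 genes tested.

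Narrower choices of low-Ttr cells ended some of the calls. Without the ciliary epithelium-marked cells, 42 cells of R1 and 8 of R2 remained and 6 members passed, all but Krt18 (log2 fold change -1.37, edgeR adjusted p = 0.267), Krt8 (-1.85, adjusted p = 0.0876) and Tpm1 (1.67, adjusted p = 0.360) of the 9. When low-Ttr cells with at least 3 markers of any of 9 other cell types were left out, which left a different set of 42 and 8 cells, 4 members passed, namely Map1b, Anxa2, Ezr and Ermn. Among all genes other than Ttr, 458 were called then, with 11259 tested. Without the ciliary epithelium-marked cells 511 were called, with 11337 tested. One of the lists of the 9 types, for Muller glia, holds Vim itself and the RPE genes Rlbp1, Glul and Slc1a3. This list marked 11 and 8 low-Ttr cells, which were left out. It also marked 1695 of 2612 and 1658 of 2828 high-Ttr cells, which were kept.

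The promoters of the members with the largest differences in either direction are shown, from the RefSeq annotation of GRCm38.p6, 5′ to 3′ on the strand of the gene. Each ends at the base before the annotated start, or earlier where GENCODE places the gene further upstream. Capitals mark TATAAA, the letters of the TATA box wherever they occur, and TGANTCA, the letters bound by AP-1 factors. Map1b is at chr13:99516603-99516752 on the minus strand, Anxa2 at chr9:69453533-69453619 on the plus strand, Ermn at chr2:58052865-58053014 on the minus strand and Ezr at chr17:6782785-6782930 on the minus strand.
Map1b: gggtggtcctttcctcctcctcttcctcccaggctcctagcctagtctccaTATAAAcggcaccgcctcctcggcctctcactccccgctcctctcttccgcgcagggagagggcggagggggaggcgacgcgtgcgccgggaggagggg
Anxa2: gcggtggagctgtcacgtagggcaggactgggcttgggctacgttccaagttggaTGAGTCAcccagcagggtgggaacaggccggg
Ermn: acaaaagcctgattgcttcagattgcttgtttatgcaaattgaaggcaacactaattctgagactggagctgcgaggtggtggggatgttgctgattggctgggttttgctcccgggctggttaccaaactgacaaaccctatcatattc
Ezr: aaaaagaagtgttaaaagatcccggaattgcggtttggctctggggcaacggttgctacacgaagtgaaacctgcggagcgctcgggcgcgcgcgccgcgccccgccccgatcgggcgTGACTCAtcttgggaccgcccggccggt

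Among these windows, Map1b held TATAAA 99 bases before its start, and Anxa2 held TGANTCA 95 bases and, inside the stretch that GENCODE assigns to the gene and that is not shown, TATAAA 17 bases before its start. Ezr held TGANTCA 32 bases before its start, and Ermn held neither. Of the 10 members, 9 had windows of 300 bases, and 8 motifs were searched on both strands. Actb had no window, so its promoter was not searched. TATAAA was found in 4 of the 9 (Krt8, Vim, Anxa2 and Map1b), against 13.6% of all 32851 windows, and TGANTCA in 2 (Ezr and Anxa2), against 7.81%. GGGCGG, the letters bound by Sp1, was found in 5 (35.7% of all windows), CCAAT in 3 (37.4%) and TAATCC, the letters bound by the eye factors Otx2 and Crx, in 1 (7.06%). None of the 9 held CATGTG (14.2%), CACGTG (7.15%) or the CArG box of serum response factor (1.63%). These matches describe letters in the windows. Members that were higher and members that were lower in low-Ttr cells both held TATAAA and TGANTCA.

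The other genes of the same systems were counted from 13 lists with 166 genes besides the members, chosen with earlier results of these data known. Of these, 119 were tested and 16 were higher and 15 lower in low-Ttr cells, with a median log2 fold change of 0.16 against -0.39 over all genes tested. Of the 119, 26.1% were called, against 10.9% of all genes tested other than Ttr (4.16% higher and 6.73% lower). Without TMM scaling the counts were 38 and 11, where 1070 of all genes other than Ttr were higher and 375 lower. As the lists were chosen with results known, these shares are no test. The actin monomer regulators held the gene with the highest level, Tmsb4x, thymosin β4, at 40.4 and 47.7 UMIs per 10000 against 1.32 and 1.48 (log2 fold change 4.19, edgeR adjusted p = 4.57e-32). In the same list Gsn, the actin-severing protein gelsolin, was higher by a log2 fold change of 7.70 and Cotl1 was lower by -3.32, 3 of 17 tested genes being higher and 1 lower.

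The linkers of the ezrin system followed Ezr in 1 case. Slc9a3r1, the scaffold that binds ezrin at the apical membrane, had 0.631 and 0.439 UMIs per 10000 against 7.01 and 8.08 (log2 fold change -4.49, edgeR adjusted p = 2.55e-24). The ezrin paralogs Rdx and Msn, named after their values were seen, did not pass, with log2 fold changes of 0.60 (SE 0.43) and -0.52 (SE 0.57). No other of the 8 tested genes of this list was called. Without TMM scaling 2 of the 8 were higher and 1 was lower. Of the kinases and small GTPases, Rhob was higher (2.74, 1 of 9 called), and of the microvillus and actin bundling genes Pls3 was higher (1.62) and Fscn1 lower (-4.29), 2 of 10 called.

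Among intermediate filament genes other than the members, Lmna (a nuclear lamin) was higher by 2.35, and Dsp (desmoplakin, which anchors keratins to desmosomes) had 0 UMIs in low-Ttr cells of both mice against 0.383 and 0.359 per 10000. Keratins other than the members were sparse, and 1 of 8 was tested and not called. Of the tropomyosins, Tpm4 was higher (log2 fold change 2.64, edgeR adjusted p = 0.00302), and Tpm3 (1.04, adjusted p = 0.399) and Tpm2 (1.25, adjusted p = 0.735) did not pass. Without TMM scaling Tpm3 passed (1.82, edgeR adjusted p = 0.0400), and Tpm2 did not (2.04, adjusted p = 0.515). The actin list had 1 tested gene besides Actb, Acta2, which was lower at 0.263 and 0.329 against 2.44 and 2.46 (log2 fold change -3.85, edgeR adjusted p = 2.54e-12).

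The annexin and S100 list had the largest number of genes called. Of its 11 tested genes besides Anxa2, 6 were higher and 2 lower. Without TMM scaling 9 were higher and 1 lower. S100a6 was at 1.31 and 2.74 UMIs per 10000 against 0.00126 and 0.0156, and Anxa1 at 0.684 and 1.65 against 0.00379 and 0.00594. Anxa7 was lower by -2.05, and S100a1, an abundant RPE transcript at 17.5 in both mice, was lower by -1.18, which did not pass without TMM scaling (-0.38, edgeR adjusted p = 0.314).

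Microtubule genes gave a mixed picture besides Map1b. Of 12 tested microtubule-associated genes, edgeR called 2, both lower, namely Dclk1 (-5.18) and Mapre1 (-1.04, and -0.25 without TMM scaling). Of 9 tested tubulins, Tuba1a, the α-tubulin of neurons, was higher at 9.83 and 13.3 UMIs per 10000 against 0.782 and 0.707, and Tuba1c (-4.07) and Tubb4b (-1.79) were lower. Of the myosins and contractile regulators 2 of 19 were higher (Pdlim4 at 8.70 and Tagln2 at 7.04) and 3 lower, among them Myh14 (-4.69) and Pdlim1 (-3.95, which did not pass without TMM scaling, edgeR adjusted p = 0.0957). The balance of calls depended on the scaling. Without TMM scaling 5 of these 19 genes were higher and 1 lower. The tubulins then had 4 higher and 2 lower, and the microtubule-associated genes 1 higher and 1 lower.

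Tissue dissociation raises immediate-early genes, and these were recorded beside the members. Of 16 tested genes of that list, 6 were higher in low-Ttr cells, among them Socs3 and Dusp1, and 1, Hspa1a, was lower. Dusp1 was at 2.21 and 2.96 UMIs per 10000 against 0.0354 and 0.0973. Over high-Ttr cells the summed list and each member had Pearson r between -0.06 and 0.06. Its part in the difference between low-Ttr and high-Ttr cells was not tested.

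Among the 5 members found in most high-Ttr cells, Actb had the largest change of level with depth. In 4 equal classes of cells from shallow to deep, its mean was 4.80, 3.47, 2.88 and 2.95 UMIs per 10000 in R1 and 11.4, 9.06, 5.33 and 2.91 in R2. The mice were close to each other in the deepest class and apart in the shallower classes. Over the 2828 high-Ttr cells of R2, Pearson r of Actb with log10 UMIs was -0.48, and over the 2612 cells of R1 it was 0.01, where the other members had values from 0.01 to 0.24 in either mouse (r here and below is taken over single cells of 1 library on the log2(UMIs per 10000 + 1) scale and is given without a p). On this scale r need not follow the class means. Actb fell over the classes of R1 with r at 0.01. Ermn went from 7.24 in the shallowest to 6.15 in the deepest class of R2 with r at 0.10.

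**Figure D4:**
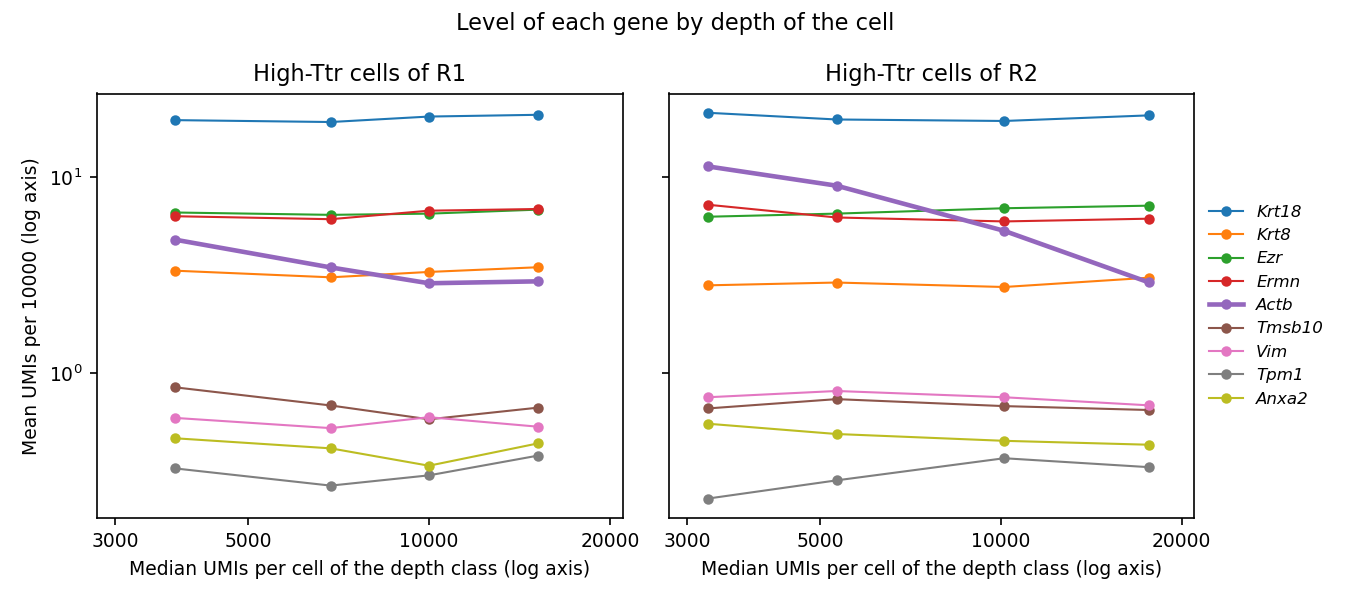
Mean UMIs per 10000 of each gene except Map1b (vertical log axis) in 4 equal classes of high-Ttr cells ordered by depth, against the median UMIs per cell of the class (horizontal log axis), for R1 and R2. Actb (thick purple line) went from 11.4 to 2.91 in R2 and from 4.80 to 2.95 in R1, while Krt18 stayed between 19.1 and 21.3.

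The other members found in most cells changed less with depth. Krt18 stayed between 19.1 and 21.3, Ezr between 6.29 and 7.16, Ermn between 5.95 and 7.24 and Krt8 between 2.76 and 3.48 over the depth classes of both mice. Of the sparse members, Tpm1 went from 0.230 to 0.333 UMIs per 10000 from the shallowest to the deepest class of R2, with 0.370 in the one before it, and Map1b rested on too few UMIs for such classes. After thinning to 2000 UMIs, the variance of Actb over cells was 1.58 times its mean in R1 and 1.97 times in R2, where genes of like level had medians of 1.26 and 1.37 and 11 of 255 and 0 of 127 of them were higher. Vim was also uneven for its level, at 1.65 and 1.62, with 30 of 1321 and 22 of 1016 genes of like level above it. Tmsb10 and Krt8 were even, with 1.12 and 1.06 and with 1.15 and 1.21, below the medians of genes of like level in both mice.

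Covariation of the members over high-Ttr cells was weak. Over the 45 pairs, r ranged from -0.04 to 0.10 in R1 and from -0.13 to 0.08 in R2 with a median of 0.01 in each mouse, and no pair reached 0.1 in both. Over all pairs of 5024 genes found in at least 10% of these cells in both mice, the median was 0.01 in each and the 95th percentile was 0.05 in each. Map1b, found in 1.07% and 0.707% of these cells, is not among those genes, although its pairs are among the 45. The keratin pair had 0.10 and 0.03, Ermn and Krt18 0.10 and 0.07, Ezr and Krt8 0.04 and 0.08, and Ezr and Ermn 0.04 and 0.05. The lowest value was that of Actb and Ezr in R2, -0.13, against 0.03 in R1. After a linear fit on depth and mitochondrial share, the pairs ranged from -0.04 to 0.07 in R1, highest for the keratin pair, and from -0.05 to 0.04 in R2. The 99th percentile over all pairs of the 5024 genes was 0.08 in R1 and 0.07 in R2. Before that fit, the keratin pair and Ermn with Krt18 exceeded it in R1, and Ezr with Krt8 in R2. No pair exceeded it in both mice. Values of this size are described only and were not tested.

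**Figure D5:**
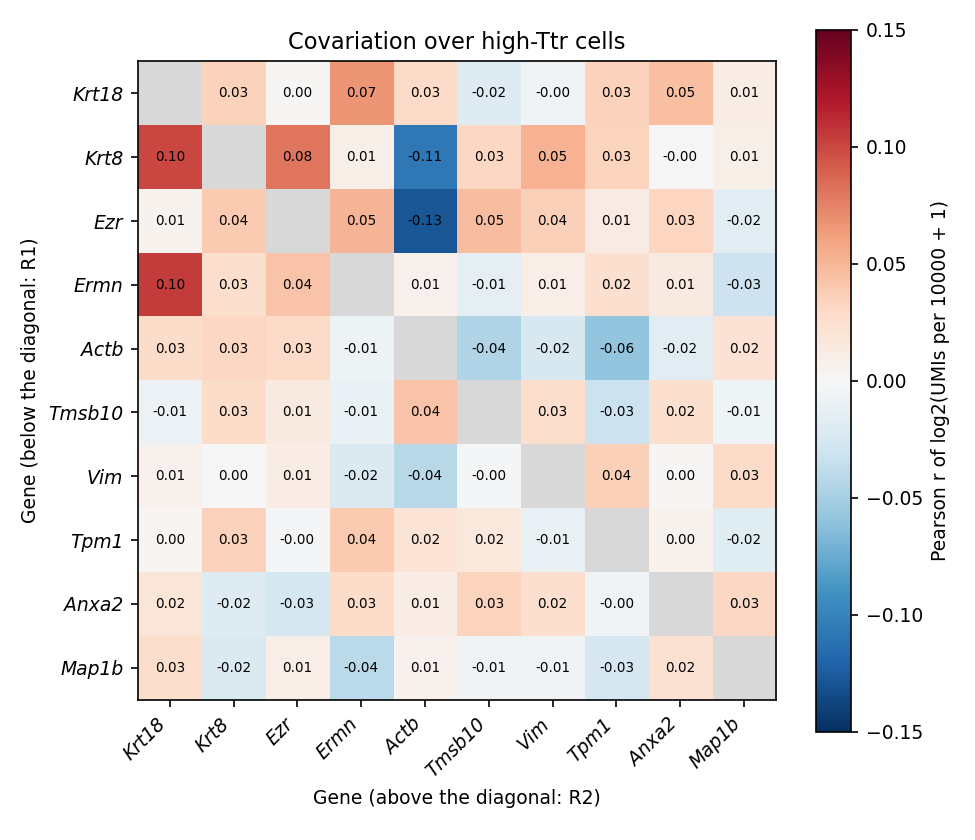
Pearson r of log2(UMIs per 10000 + 1) over high-Ttr cells for each pair of the 10 genes, below the diagonal for R1 (2612 cells) and above it for R2 (2828 cells), with the value printed in each square. Nearly all squares are pale, the highest value is that of Ermn with Krt18 (0.10 in R1) and the lowest that of Actb with Ezr (-0.13 in R2).

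Larger values were found with single genes outside the group. For Actb the most alike genes were Bhlhe41, a circadian transcription factor (0.20 in R1 and 0.34 in R2), and Abhd2 (0.16 and 0.29). After thinning to 2000 UMIs these were 0.10 and 0.21 for Bhlhe41 and 0.10 and 0.18 for Abhd2. After a linear fit on depth and mitochondrial share they were 0.20 in both mice for Bhlhe41, and 0.15 and 0.20 for Abhd2. Bhlhe41 shared the depth pattern of Actb, with 2.01 UMIs per 10000 in the shallowest and 0.226 in the deepest class of R2 and 0.602 and 0.228 in R1. Within those classes of R2 the r with Actb was 0.07 and 0.09, and within those of R1 it was 0.28 and 0.09.

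Rgr was the gene most alike to both Ermn and Krt18. For Ermn the 2 most alike genes were Rgr, an RPE opsin (0.31 and 0.15), and Rdh5, the 11-cis retinol dehydrogenase (0.13 and 0.09). For Krt18 they were Rgr (0.21 and 0.19) and Apoe, apolipoprotein E (0.21 and 0.16). Both members also had negative r with the mitochondrial share of the cell, -0.29 and -0.13 for Ermn and -0.29 and -0.17 for Krt18. After a linear fit on depth and mitochondrial share, r with Rgr was 0.14 and 0.11 for Ermn and 0.02 and 0.13 for Krt18. In that fit r was 0.04 and 0.05 for Ermn with Rdh5, and 0.12 and 0.13 for Krt18 with Apoe. For Krt8 the most alike genes were Hsp90aa1 (0.13 and 0.14) and Apoe (0.10 and 0.11), and for Ezr they were Tbc1d1 (0.10 and 0.11) and Timp3 (0.10 in both mice). The genes most like Tmsb10, Vim, Tpm1, Anxa2 and Map1b all had r under 0.1 in both mice.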

How the data were processed

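RPE cells of 2 mice had been sequenced singly in droplets, and the analysis began from the UMI counts per gene and cell that the authors deposited for each mouse. Per the labels and the methods, the authors processed the reads with bcl2fastq 2.20.0.422 and Cell Ranger 1.2.0 against GRCm38, without normalization. Reads shared between near-identical or overlapping genes can be lost in such counting. Gene positions and overlaps were read from GENCODE vM21, and motifs from 32851 RefSeq promoter windows of GRCm38.p6 by symbol.

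Cells were kept with at least 500 genes and at most 5% mitochondrial UMIs, and the top 4% by a doublet score were removed, computed from artificial doublets among nearest neighbours. This removed 112 and 119 cells as doublets and left 2670 and 2847 cells. Total depth was 26034378 and 29732969 UMIs, and single cells held from 2145 to 34617. The authors' removal of ambient RNA was not repeated. Levels were scaled to 10000 UMIs. UMIs were summed over low-Ttr and high-Ttr cells of each mouse, which gave 4 sums, and tested with edgeR 4.0.16 in R 4.3.3 (TMM, filterByExpr, quasi-likelihood, Benjamini-Hochberg at 0.05). Both sums of a mouse come from the same animal, so the mouse was a block in the design, and pairing was not inferred from the data. DESeq2 1.42.0 was an alternative, with other scalings, filters, Ttr limits, cell choices and leaving out either mouse. Shares have Clopper-Pearson and levels exact Poisson 95% intervals, which cover counting error only.

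The members, marker lists and gene lists were chosen with earlier results of these data known. Besides the members, the text names, of each list, the 2 called genes most increased and the 2 most decreased by fold change in the same direction in both mice, every gene of lists of at most 4, and for each member the 2 genes with the highest lower r of both mice among 5024 genes. Most alike genes with r under 0.1 are counted only. Genes named outside this rule are marked. A result that the rule would name is not reported here.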

Additional observations from a re-analysis of the deposited data

Results flagged for a closer look

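The filters left out 10 low-Ttr cells of R1 with 30040 UMIs (1 by doublet score, 5 by mitochondrial share and 4 by number of genes) and 2 of R2 with 6447 UMIs, and the comparisons above do not use them. Members were found in them above the limit of 3 counts that a count of 0 allows. In R1 these cells held 22 UMIs of Krt18, 13 of Tmsb10, 10 of Actb, 8 of Vim, 4 of Krt8 and 4 of Anxa2. In R2 they held 6 UMIs of Krt18, 6 of Map1b and 4 of Anxa2. Per 10000 UMIs, Krt18 was at 7.32 and 9.31, Tmsb10 at 4.33 and 4.65, Anxa2 at 1.33 and 6.20 and Map1b at 0.666 and 9.31, where the low-Ttr cells kept had 8.10 and 9.11 of Anxa2 and 7.20 and 4.50 of Map1b. With all deposited cells and no filter, 9 members passed the edgeR test. Of all genes other than Ttr, 1336 passed there, with 11604 genes tested.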

How the results depend on the processing

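With 19 low-Ttr cells in R2 and 2 mice, a count of a few UMIs limits Ermn, Krt8, Ezr and Tpm1 in low-Ttr cells, and the sums share their mouse. Over 15 alternatives to the edgeR fit as reported, Map1b, Anxa2, Ezr and Ermn passed in every one, and the other 5 called members failed when cells marked for any of 9 other types were left out, 3 of them also without the ciliary epithelium-marked cells. With the 9 types left out, 4 members were called (2 higher and 2 lower) among 458 genes (178 higher and 280 lower), and the log2 fold changes were 1.76 for Tmsb10 (edgeR adjusted p = 0.0527), -1.55 for Krt8 (0.0895), -1.24 for Krt18 (0.0528), 1.07 for Vim (0.695) and 1.96 for Tpm1 (0.138), with fewer cells by construction. The Muller glia list among the 9 types holds Vim, so low-Ttr cells with UMIs of Vim were more readily left out. Without the ciliary epithelium-marked cells, also with fewer cells, 6 members were called (4 higher and 2 lower) among 511 genes (263 higher and 248 lower), and Krt8 (-1.85, edgeR adjusted p = 0.0876), Krt18 (-1.37, 0.267) and Tpm1 (1.67, 0.360) did not pass. Without TMM scaling 1070 genes were higher and 375 lower, so 74.0% of calls were higher against 38.2% as reported, and Actb turned from -0.16 to 0.63, while the other members kept their direction. With high-Ttr cells of matched depth 48.0% of calls were higher, and with DESeq2 53.5%, where 431 genes were lower. Without the replicate block 2290 genes were called (927 higher and 1363 lower), and the same number of members. The cause of the changes with scaling, tool and block was not tested. Leaving out either mouse gives values, under TMM scaling, with no test and no count of calls. These ranged from 7.98 to 8.02 for Map1b, from -2.49 to -1.03 for Krt18, from -3.10 to -1.67 for Krt8, from 1.07 to 2.16 for Tpm1 and from -0.61 to 0.19 for Actb. Thinning to 2000 UMIs changed the share of cells with a UMI by up to 36.1 percentage points (Krt8 in R1). The median r over the 45 pairs, 0.0109, was 0.0185 with Spearman's rho, 0.00267 after thinning, 0.00591 for residuals on depth and mitochondrial share, 0.0300 with a pseudocount of 0.1, 0.0114 with Ttr limits of 8% and 1.5%, and 0.0118 without doublet removal. Leaving out the ciliary epithelium-marked cells, the microglia-marked and fibroblast-marked cells, and the 3 low-Ttr cells over 8000 UMIs were alternatives chosen after seeing the data, with 9 members called in the last 2. Over all genes other than Ttr, 984 and 1002 were called in these 2.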
